A study of Mus musculus with 2 samples.

Results

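Interferon-stimulated genes are the genes a cell switches on when it senses interferon, and 42 of them are described here in RAW264.7 cells grown in 2D or in 3D culture. They were named in a list drawn up for this work with earlier results of these data known. All 42 were found among the 52550 genes of the deposited tables through their Ensembl identifiers. RAW264.7 is a mouse macrophage line derived from a tumour induced by Abelson murine leukaemia virus in a BALB/c mouse. The cells were untreated in both groups, and each culture method was represented by 1 RNA library, so differences could not be set against a spread between replicates and no p-values are given. The sources used here do not say how the 3D culture was set up.

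Type I interferons bind the receptor chains IFNAR1 and IFNAR2, whose kinases JAK1 and TYK2 phosphorylate STAT proteins, STAT2 among them. With IRF9 these form the factor ISGF3, which binds a response element in the promoters of its targets. The targets encode nucleic acid sensors, enzymes that degrade or block viral RNA, and brakes on the pathway itself. Macrophages are known to keep a low level of this programme without infection, often called the tonic interferon response.

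The 2D library held 14371084 counts and the 3D library 16652503. Values are TMM-scaled counts per 1000000 (CPM), TMM being a scaling that assumes most genes are not different. Ratios set 3D over 2D and carry exact 95% intervals that cover counting error only. A mean of 1 CPM across the pair of libraries was the limit for calling a gene measured, and differences are called by size, at 2-fold or more. By that rule 11673 genes were measured; the 3D library was at least 2-fold higher for 18.7% of them and lower to that extent for 20.8%. Scaling to total counts lowered every log2 ratio by 0.60, and setting the median of 22 reference genes to 0 lowered it by 0.80. All 10 macrophage markers examined were measured, with summed levels of 3163 CPM in 2D and 9461 CPM in 3D, carried mainly by Lyz2, Cd68, Csf1r and Cd14. Itgam and Fcgr1 went the other way, with ratios of 0.731 (0.616 to 0.865) and 0.687 (0.509 to 0.920). The plasmacytoid dendritic cell markers Siglech, Ccr9 and Klk1 were at 0 in both libraries, although that list summed to 65.7 CPM in 2D and 24.9 CPM in 3D, mostly Tcf4, whose part in the values below was not tested. Also at 0 in both were Cd3d, Cd3e, Cd3g and Cd2 of T cells and Ms4a1 and Pax5 of B cells. Of the same lists, the T cell marker Lck was measured, with 96 counts in each library (5.43 CPM in 2D and 7.09 CPM in 3D). The B cell marker Cd79a had 6 counts in 2D and 4 in 3D. The 5 hepatocyte markers had summed counts of 10 in 2D and 306 in 3D, among which Alb had 8 and 232; their part in the values below was not tested.

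Most of these 42 genes stood at a low level in both cultures and at a lower level in the 3D library with TMM scaling. The statement covers the 42 only, because a wider list given below had a higher sum in 3D. Together the 42 genes held 6768 counts in the 2D library, or 0.0471% of its total (95% Wilson interval 0.0460% to 0.0482%), and 3679 counts in the 3D library, or 0.0221% (0.0214% to 0.0228%). On the TMM scale their summed level was 383 CPM in 2D and 272 CPM in 3D, which was 1.41-fold lower in 3D (1.35 to 1.47). In such bulk RNA, fewer cells that express a gene and less of its RNA per cell cannot be told apart. On the scale of total counts the difference in share was 2.13-fold. A few genes carried these sums. Oas3, Bst2, Eif2ak2 and Stat2 supplied 47.3% of the members' counts in the 2D library, and Bst2, Oas1a, Stat2 and Oas3 supplied 54.6% in the 3D library.

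Of the 42 genes, 41 had counts in the 2D library and 33 had counts in the 3D library. The level of each gene per kilobase of exon was placed among all measured genes. In the 2D library 24 of the 42 lay below the 10th percentile, and in the 3D library 28 did. The genes compared with had all passed the 1 CPM limit and 20 of the 42 members had not. The low placing of those 20 therefore follows in part from the limit. Above the 50th percentile stood Oas1a, Oas1g, Oas3, Eif2ak2, Bst2 and Isg20 in the 2D library, and Oas1a, Oas1g, Oasl1, Bst2 and Isg20 in the 3D library. Bst2, which encodes tetherin, a membrane protein that holds budding virus on the cell surface, had the highest level per length of all members, 45.9 CPM per kilobase in 2D and 46.7 in 3D, at percentiles 92.8 and 88.2. Isg15, the ubiquitin-like modifier that is among the most strongly induced targets of interferon, stood at 1.42 and 0.489 CPM per kilobase, at percentiles 13.6 and 8.54.

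**Figure D1:**
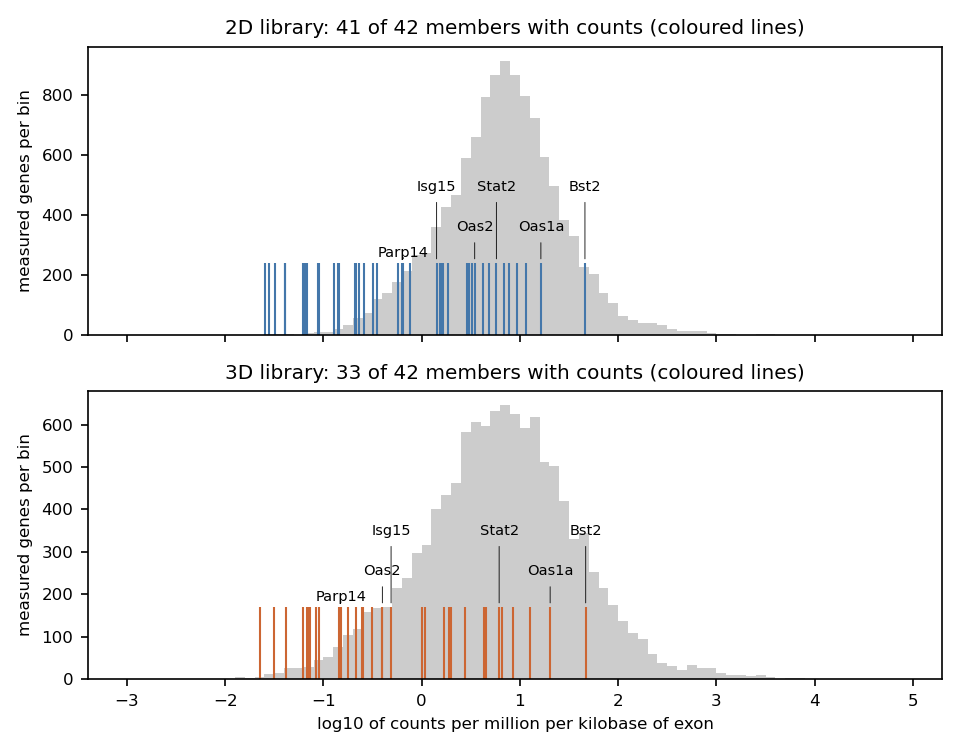
Histograms of the level per kilobase of exon (log10 of CPM per kilobase) over all measured genes in each library (grey), with the members that had counts as coloured lines. Bst2, Oas1a, Stat2, Oas2, Isg15 and Parp14 are named. Of the 42 genes, 24 in 2D and 28 in 3D lie below the 10th percentile of measured genes, those at 0 counts included, and Bst2 stands furthest to the right, at 45.9 CPM per kilobase in 2D and 46.7 in 3D.

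Of the 42 genes, 22 were measured and 20 were below the limit. The limit itself favours genes that are high in one library: Ifih1, Rtp4 and Phf11d passed it only through the 2D library, and none passed only through the 3D library. Among the 22 measured genes, 10 were at least 2-fold lower in the 3D library, 1 was higher to that extent and 11 lay between, against 20.8% lower and 18.7% higher of all measured genes. Of the 19 that reached 1 CPM in each library, 7 were at least 2-fold lower. The share of all genes under that stricter rule was not computed. The counting interval lay below 1 for 15 of the 22 and above 1 for Oas1a, Oasl1 and Isg20, and it held 1 for Stat2, Usp18, Bst2 and Ifi27l2a. The matching shares of all measured genes were not computed, so these interval counts describe the members only. The median log2 ratio of the measured members was -0.80, beside 0.05 for all measured genes. Other rules moved the share of all genes together with that of the members. Under total counts 16 of 23 measured members were 2-fold lower, where 36.5% of all genes were, and 0 were higher, where 5.59% were. Under the reference genes 15 of 22 were lower against 42% of all genes, and 0 higher against 3.61%. At 1.5-fold, 15 members were lower against 30.4% and 2 higher against 31.7%. With the whole counting interval beyond 2-fold, 6 were lower against 14.4% and 0 higher against 13.1%.

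**Figure D2:**
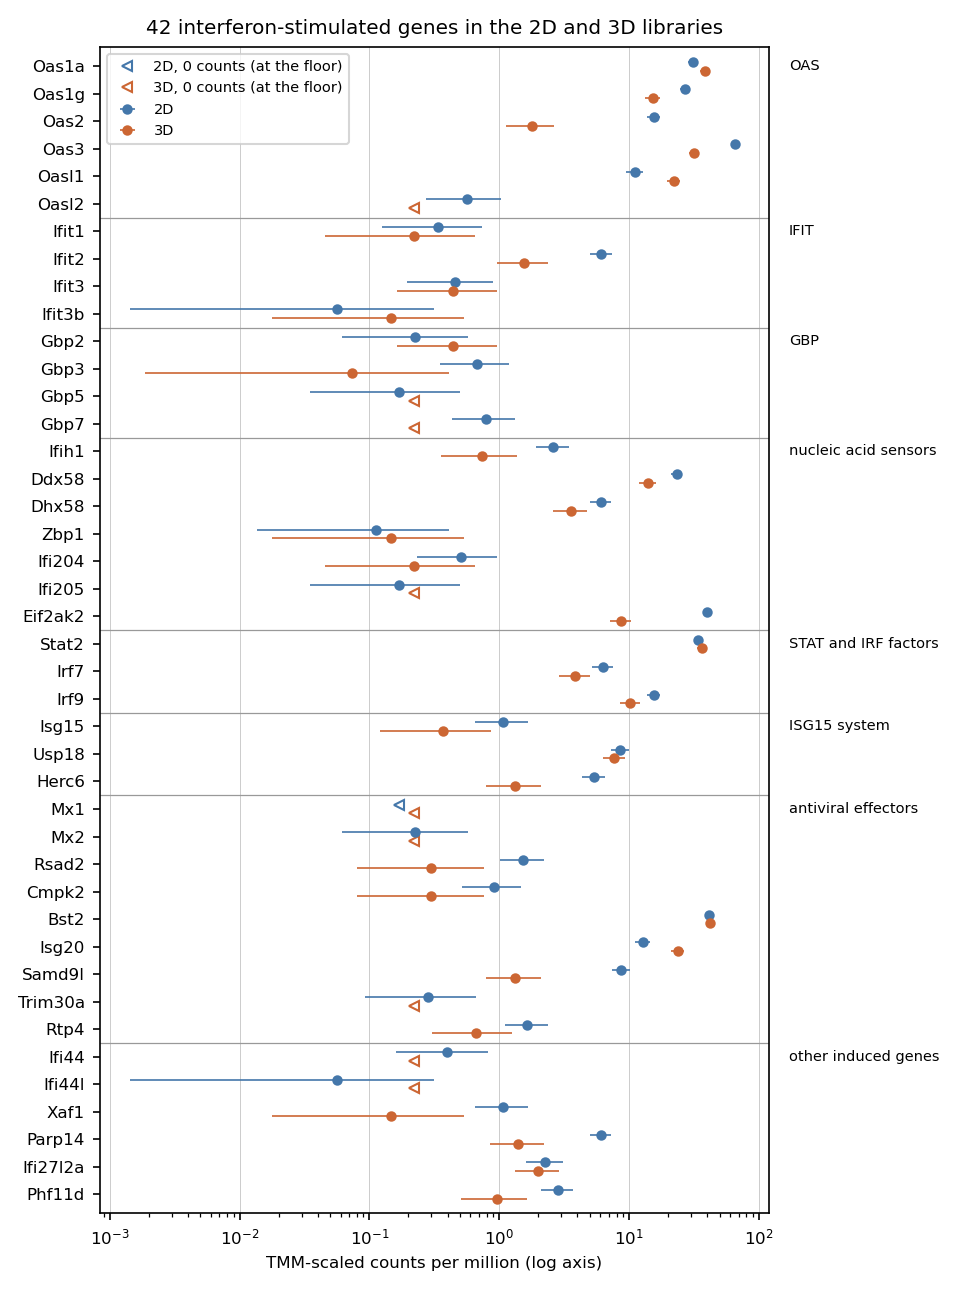
Level of each of the 42 genes in the 2D library (blue) and the 3D library (orange) in TMM-scaled CPM on a log axis, ordered by role, with 95% Poisson counting intervals as bars. Open triangles mark libraries with 0 counts, drawn at the floor of 3 counts; Oas2, Eif2ak2 and Samd9l show wide gaps between libraries, while the points of Bst2 and Stat2 nearly coincide.

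The OAS group, whose enzymes make the 2′-5′ oligoadenylates on sensing double-stranded RNA, was the most abundant group and held members that went opposite ways. Its 6 genes summed to 150 CPM in 2D and 109 CPM in 3D, 1.38-fold lower in 3D (1.29 to 1.47), and supplied 39.3% of the members' counts in 2D and 40.1% in 3D. Oas1a, Oas1g, Oas2 and Oas3 lie within 177 kilobases of chromosome 5 (mm10), and Oasl1 and Oasl2 lie next to each other elsewhere on that chromosome. Oas2 (ENSMUSG00000032690, chromosome 5, 120730333 to 120749853) had 273 counts in 2D and 24 in 3D, levels of 15.4 and 1.77 CPM, and was 8.70-fold lower in 3D (5.73 to 13.8). That was the lowest ratio of any measured member. Oas3 (ENSMUSG00000032661, chromosome 5, 120753098 to 120777661) had 1162 and 428 counts, levels of 65.7 and 31.6 CPM, and was 2.08-fold lower (1.86 to 2.33).

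The paralogs Oas1a and Oas1g, which encode small OAS enzymes, parted from each other. Oas1a (ENSMUSG00000052776, chromosome 5, 120896256 to 120907521) had 545 counts in 2D and 518 in 3D, levels of 30.8 and 38.3 CPM and a ratio of 1.24 (1.10 to 1.40), but total counts and the reference genes both put it below 1. Oas1g (ENSMUSG00000066861, chromosome 5, 120876142 to 120887613) had 476 and 206 counts, levels of 26.9 and 15.2 CPM and a ratio of 0.566 (0.478 to 0.667), which was beyond 2-fold with total counts or the reference genes. A comparison of genes within a library does not depend on scaling. Oas1a had 1.14 counts per Oas1g count in 2D and 2.51 in 3D, a 2.20-fold difference (exact 95% interval 1.78 to 2.71, counting error only). Against Oas2 the same quantity went from 2.00 to 21.6, a difference of 10.8-fold (6.96 to 17.4), and for Oas3 per Oas2 it went from 4.26 to 17.8, a difference of 4.19-fold (2.71 to 6.75). The GC contents of their longest transcripts were 52.0% for Oas1a, 51.6% for Oas1g, 50.6% for Oas2 and 54.6% for Oas3. Their exon lengths were 1.89, 2.34, 4.45 and 7.07 kilobases in that order. The part of GC content and length in these pair differences was not tested. Oas1a and Oas1g are near copies of each other, so the division of reads between them is uncertain.

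Of the OAS-like genes, Oasl1, whose product restrains translation of Irf7 mRNA, had 195 counts in 2D and 299 in 3D. Its levels were 11.03 and 22.1 CPM, a ratio of 2.00 (1.67 to 2.41), so it sat at the 2-fold limit and was the only measured member to reach it upward. The log2 ratio of Oasl1 was 0.40 with total counts and 0.20 with the reference genes. Its exons overlap those of an antisense gene, and since the strand option of the counting is not given, reads of the pair cannot be told apart. Oasl2, an enzymatically active member, had 10 counts in 2D and 0 in 3D, which is at least 2.55-fold lower with the 3D count set to the floor of 3. The counting interval of that floor-based value reached down to 1.72-fold.

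The IFIT genes, in a cluster on chromosome 19, encode tetratricopeptide proteins that bind viral RNA ends and block its translation. Only Ifit2 was measured, with 108 counts in 2D and 21 in 3D, levels of 6.11 and 1.55 CPM, and it was 3.94-fold lower (2.45 to 6.61). Ifit1 had 6 and 3 counts, Ifit3 had 8 and 6, and Ifit3b had 1 and 2. For Ifit3 the ratio was 0.98 with an interval of 0.28 to 3.22, so a difference of 2-fold in either direction was not detectable at this depth. The group summed to 6.95 CPM in 2D and 2.36 CPM in 3D, 2.94-fold lower (1.98 to 4.49), and Ifit2 supplied most of it.

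Promoter stretches of 3 OAS genes, 3 IFIT genes, Isg15 and Bst2 are shown because these genes share the response element while their counts differ widely. The core searched was GAAA, any 2 bases, then GAAA, on both strands, from 250 bases before to 50 bases after each annotated start in RefSeq (GRCm38.p6). Each line is the gene's strand, 5′ to 3′, with matches in capitals, including overlapping ones.
Oas1a: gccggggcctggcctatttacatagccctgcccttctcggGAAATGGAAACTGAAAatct
Oas1g: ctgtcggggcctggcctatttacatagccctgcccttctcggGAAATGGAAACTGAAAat
Oas3: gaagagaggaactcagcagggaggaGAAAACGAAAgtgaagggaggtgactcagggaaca
Isg15: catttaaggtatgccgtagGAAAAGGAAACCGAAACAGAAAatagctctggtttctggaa
Bst2: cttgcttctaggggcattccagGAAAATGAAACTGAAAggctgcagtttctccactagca
Ifit1: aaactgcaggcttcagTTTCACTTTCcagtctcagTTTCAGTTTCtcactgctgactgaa
Ifit3: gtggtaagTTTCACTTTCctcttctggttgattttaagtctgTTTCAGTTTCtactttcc
Ifit3b: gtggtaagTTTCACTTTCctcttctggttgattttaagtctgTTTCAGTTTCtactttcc

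The stretch of Oas1a is chr5:120907526-120907585 on the minus strand, that of Oas1g is chr5:120887614-120887673 on the minus strand and that of Oas3 is chr5:120777700-120777759 on the minus strand. Those of Isg15 (chr4:156200856-156200915, minus strand), Bst2 (chr8:71537565-71537624, minus strand), Ifit1 (chr19:34640769-34640828, plus strand), Ifit3 (chr19:34583365-34583424, plus strand) and Ifit3b (chr19:34607761-34607820, plus strand) also lie wholly before the start site. The stretches of Oas1a and Oas1g share a run of 56 of 60 bases, matches included, and those of Ifit3 and Ifit3b are identical over all 60. Isg15 holds 3 overlapping matches and had 19 and 5 counts, whereas Bst2 holds 2 and had 733 and 571. Of the 32 members with an entry in the promoter table, 19 (59.4%) held the core, against 3.99% of all 27025 genes with an entry. The core TTCNNNGAA, the gamma-activated site, was found for 7 of the 32 members (21.9%), against 9.55% of all genes. Among measured members with an entry, 3 of 8 with the paired GAAA core were at least 2-fold lower in 3D, as were 4 of 8 without it. Of all measured genes 20.8% were, and the shares of all genes with and without the core were not computed. Ifih1, among the 3, and Phf11d, among the 4, passed the 1 CPM limit only through the 2D library. A match describes letters only and does not show that a factor binds there.

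The guanylate-binding proteins (GBP), GTPases that attack vacuoles holding microbes, were near the limit of detection. None of the 4 was measured, and together they had 33 counts in 2D and 7 in 3D. Gbp7 had 14 counts in 2D and 0 in 3D, at least 3.57-fold lower at the floor with an interval reaching down to 2.54-fold, and Gbp3 had 12 counts and 1 count, a ratio of 0.109 with an interval of 0.00255 to 0.736. Gbp5 had 3 and 0 counts and Gbp2 had 4 and 6. These genes form a cluster of close paralogs on chromosome 3, so single reads may belong to a neighbour.

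All 4 measured sensors of foreign nucleic acid were lower in the 3D library with TMM scaling, Eif2ak2 and Ifih1 at least 2-fold. Of all measured genes, 48.2% had a ratio below 1 and 20.8% were at least 2-fold lower. Ddx58 and Dhx58 passed 2-fold as well with total counts, at log2 ratios of -1.34 and -1.37, and with the reference genes, at -1.54 and -1.57. The group of 7 genes summed to 72.4 CPM in 2D and 27.2 CPM in 3D, 2.66-fold lower (2.37 to 3.00). Eif2ak2 (ENSMUSG00000024079, chromosome 17, 78852564 to 78882573), which encodes the kinase PKR that shuts down translation on binding double-stranded RNA, had 704 counts in 2D and 117 in 3D. Its levels were 39.8 and 8.65 CPM, and it was 4.60-fold lower (3.78 to 5.65). Ddx58, which encodes the RNA helicase RIG-I, had 410 and 188 counts, levels of 23.2 and 13.9 CPM, and was 1.67-fold lower (1.40 to 1.99). Dhx58, the related regulator LGP2, had 107 and 48 counts and was 1.71-fold lower (1.20 to 2.45), so Ddx58 and Dhx58 stood in nearly the same proportion, at 3.83 and 3.92 counts of the former per count of the latter, a difference of 1.02-fold (0.69 to 1.53). Ifih1, which encodes MDA5, a sensor of long double-stranded RNA, had 46 and 10 counts and was 3.52-fold lower (1.75 to 7.82). It passed the 1 CPM limit only through the 2D library. After the adjustment for GC content, exon length and level given below, log2 ratios were -1.44 for Eif2ak2, -0.77 for Dhx58, -0.10 for Ddx58 and 0.10 for Ifih1. Zbp1, a sensor of left-handed nucleic acid that triggers necroptosis, had 2 counts in each library. The DNA-binding p200 family members Ifi204 and Ifi205 had 9 and 3 counts in 2D and 3 and 0 in 3D.

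None of the 3 signal-transmitting factors among the members, Stat2, Irf7 and Irf9, reached 2-fold with TMM scaling, and their summed level was 55.9 CPM in 2D and 50.5 CPM in 3D. Stat2 (ENSMUSG00000040033, chromosome 10, 128270559 to 128292849) had 604 counts in 2D and 493 in 3D, levels of 34.2 and 36.4 CPM and a ratio of 1.07 (0.945 to 1.20), which lay below 1 under total counts and the reference genes. Irf9, the DNA-binding subunit of ISGF3, had 274 and 138 counts, levels of 15.5 and 10.2 CPM, and was 1.52-fold lower (1.23 to 1.88). Irf7, which drives the amplification of type I interferon genes, had 111 and 52 counts, levels of 6.28 and 3.84 CPM, and was 1.63-fold lower (1.16 to 2.32). Irf7 and Irf9 passed 2-fold with total counts, at log2 ratios of -1.31 and -1.20, and with the reference genes, at -1.51 and -1.40. Per Irf9 count there were 2.20 Stat2 counts in 2D and 3.57 in 3D, a 1.62-fold difference (1.27 to 2.07). Exons of Irf9 overlap another gene on the same strand and those of Irf7 one on the opposite strand, so both counts are uncertain.

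The 3 genes of the ISG15 system summed to 15.0 CPM in 2D and 9.39 CPM in 3D, 1.60-fold lower (1.29 to 1.99). Usp18, the protease that removes ISG15 from proteins and blocks IFNAR2 signalling, was close to equal, with 151 and 104 counts, levels of 8.54 and 7.69 CPM and a ratio of 0.90 (0.694 to 1.16). Herc6, the mouse ligase that attaches ISG15, had 95 and 18 counts and was 4.04-fold lower (2.42 to 7.10). Isg15 itself was below the limit, and its 19 and 5 counts gave a 2.91-fold lower value with an interval of 1.05 to 9.96.

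The antiviral effectors had nearly equal sums, 67.4 CPM in 2D and 68.4 CPM in 3D, made up of members that went different ways. Bst2 had 733 counts in 2D and 571 in 3D, levels of 41.4 and 42.2 CPM and a ratio of 1.02 (0.911 to 1.14), below 1 under total counts and the reference genes. Isg20, an exonuclease of single-stranded RNA, had 225 and 320 counts, levels of 12.7 and 23.6 CPM and a ratio of 1.86 (1.56 to 2.21). Among the measured members, Oasl1 and Isg20 had the highest ratios. Samd9l, a restriction factor that curbs translation, had 153 and 18 counts, levels of 8.65 and 1.33 CPM, and was 6.50-fold lower (3.98 to 11.3). Rtp4, a regulator of innate immune responses, had 29 and 9 counts and was 2.47-fold lower (1.14 to 5.92).

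Rsad2 and Cmpk2, neighbours on chromosome 12 that encode viperin and a mitochondrial nucleotide kinase, had 27 and 4 counts and 16 and 4 counts. Rsad2 was 5.16-fold lower (1.80 to 20.3), and for Cmpk2 the interval of the ratio, 0.0795 to 1.01, held 1. Mx1, a dynamin-like GTPase that blocks influenza virus and carries an inactivating deletion in many laboratory mouse strains, had 0 counts in both libraries, which allows up to 0.170 CPM in 2D and 0.222 CPM in 3D. Mx2 had 4 and 0 counts and Trim30a had 5 and 0, too few to compare.

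The other induced genes summed to 12.7 CPM in 2D and 4.51 CPM in 3D, 2.81-fold lower (2.11 to 3.79). Parp14, a mono-ADP-ribosyltransferase, had 107 counts in 2D and 19 in 3D and was 4.31-fold lower (2.63 to 7.44). Phf11d had 50 and 13 counts and was 2.94-fold lower (1.57 to 5.91). Ifi27l2a, a small mitochondrial protein gene, had 40 and 27 counts and a ratio of 0.882 (0.521 to 1.47). Xaf1, a binding partner of the apoptosis inhibitor XIAP, had 19 and 2 counts, a ratio of 0.138 (0.0155 to 0.570). Ifi44 had 7 and 0 counts and Ifi44l had 1 and 0. Taking the 20 genes below the limit together, 16 had a lower and 3 a higher CPM in the 3D library, and the interval lay below 1 for Oasl2, Gbp3, Gbp7, Isg15, Rsad2, Ifi44 and Xaf1 and above 1 for 0 of them. Shares over all genes below the limit were not computed.

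The ratio of the members followed the composition of their transcripts, as it did for genes at large. Across the 22 measured members the correlation of log2 ratio with GC content was 0.77 (Spearman) and 0.75 (Pearson), beside a Spearman value of 0.60 over all measured genes; the points are genes of the same 2 libraries and not independent replicates. All 6 measured members with a GC content under 45% were at least 2-fold lower in 3D (Ifit2, Ifih1, Eif2ak2, Herc6, Samd9l and Phf11d), where 49.3% of the 3006 genes in that band were. Among the 13 members of at least 50% GC, 2 were at least 2-fold lower, Oas2 and Oas3, where 6.11% of 5584 genes were. In the band from 45% to under 50%, 2 of 3 members were lower, Rtp4 and Parp14, where 19.5% of 3076 genes were. Of the lower members in these bands, Ifih1, Phf11d and Rtp4 had passed the 1 CPM limit only through the 2D library.

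**Figure D3:**
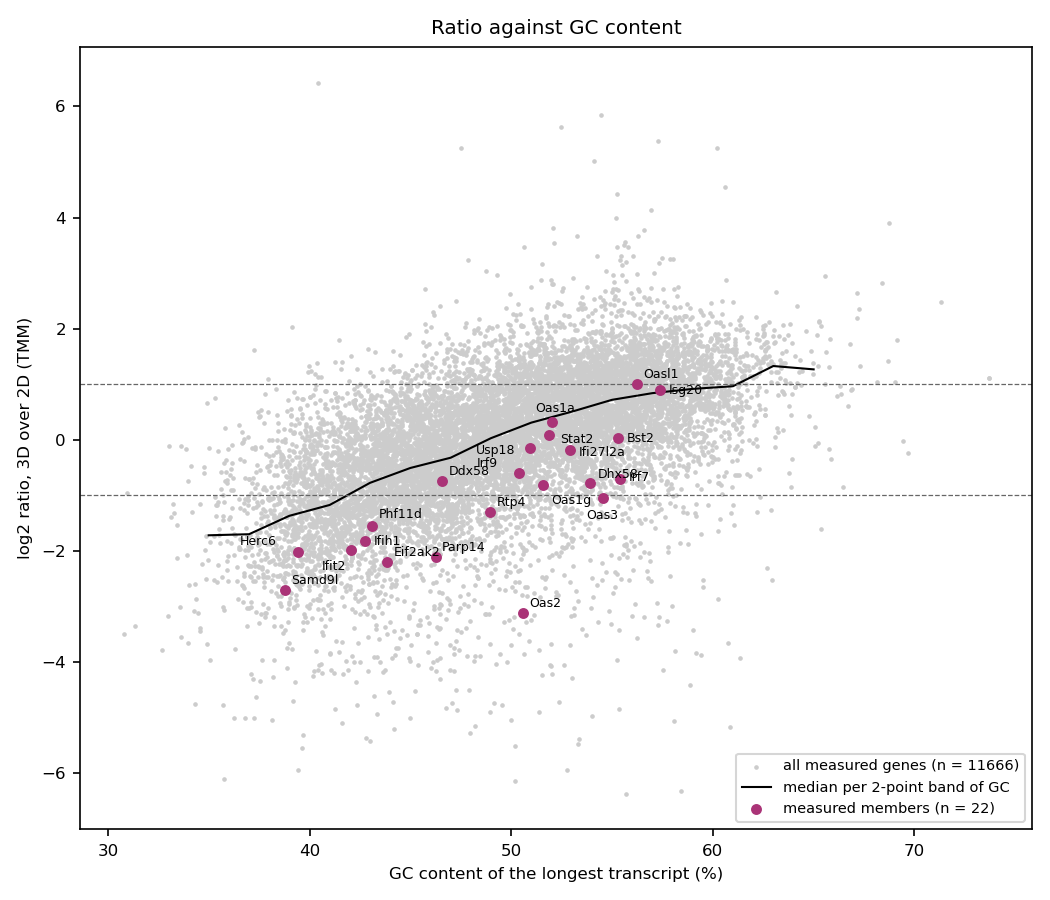
Log2 ratio (3D over 2D, TMM scaling) against GC content of the longest transcript (%) for all measured genes (grey) and the 22 measured members (named, purple), with the median per band of GC as a black line and 2-fold as dashed lines. The line climbs with GC content and most members lie below it; Oas2, at 50.6% GC and a log2 ratio of -3.12, lies furthest below.

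After the trend of the log2 ratio along GC content, exon length and mean level had been removed, 17 of the 22 members lay below 0, against 48.8% of all genes, and the members' median was -0.49 beside 0.02 for all genes. After adjustment 5 members reached 2-fold downward, against 9.75% of all genes, and 0 upward, against 10.5%. The 5 were Oas2 at -2.88, Oas3 at -1.51, Eif2ak2 at -1.44, Oas1g at -1.19 and Bst2 at -1.18. Bst2 and Oas1g had not been called before adjustment. Ifih1, Herc6 and Phf11d, lower before adjustment, had adjusted log2 ratios of 0.10, 0.086 and 0.048. Ddx58 and Dhx58 stood at -0.10 and -0.77 after adjustment. The adjusted values of Samd9l (-0.86), Parp14 (-0.82), Ifit2 (-0.53) and Rtp4 (-0.48) kept the direction below 2-fold. Oasl1 and Isg20 stood at 0.36 and 0.04, and Oas1a and Stat2, above 0 before, at -0.31 and -0.11. The adjustment removes any difference between the cultures that runs along these properties, whatever its source.

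**Figure D4:**
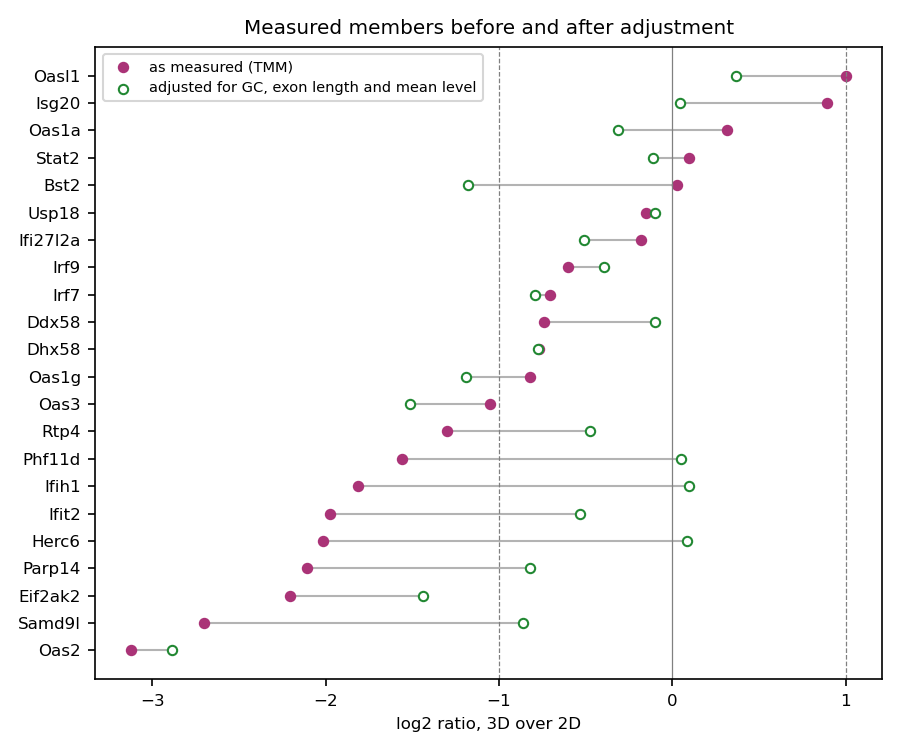
Log2 ratio (3D over 2D) of the 22 measured members as measured (filled) and after adjustment for GC, length and level (open), ordered by the measured value, with dashed lines at 2-fold. Oas2 stays near -3 in both, Ifih1, Herc6 and Phf11d move to about 0, and Bst2 moves from 0.03 to -1.18.

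Upstream of these genes, no transcript of the 11 interferon genes examined was seen, and the receptor and its kinases were present in both cultures. Ifnb1, Ifng, Ifne, Ifnk, Ifnz, Ifnl2, Ifnl3 and the 4 Ifna genes examined had 0 counts in both libraries. For each of them a count of 0 allows a level of up to 0.170 CPM in 2D and 0.222 CPM in 3D. Ifnar1 had 1089 counts in 2D and 668 in 3D, levels of 61.6 and 49.4 CPM and a ratio of 0.802 (0.727 to 0.884). Ifnar2 had 450 and 754 counts, levels of 25.4 and 55.7 CPM, and was 2.19-fold higher (1.95 to 2.47). With total counts and the reference genes Ifnar2 fell short of 2-fold, at log2 ratios of 0.53 and 0.33. Per Ifnar1 count there were 0.413 Ifnar2 counts in 2D and 1.13 in 3D, a 2.73-fold difference (2.34 to 3.19), at GC contents of 50.1% and 50.4%. Their adjusted log2 ratios were -0.46 for Ifnar1 and 0.83 for Ifnar2. Of the 5 measured genes in the list of ligands and receptors, 1 (20%) was at least 2-fold higher and 0 lower, against 18.7% and 20.8% of all measured genes.

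Of the 8 measured receptor kinases and STATs, 1 (12.5%) was at least 2-fold higher and 1 (12.5%) lower, against 18.7% and 20.8% of all measured genes. Jak2, the kinase of the interferon gamma receptor, was 2.51-fold lower (2.08 to 3.06), and Stat6, which transmits interleukin-4 signals, was 2.61-fold higher (2.49 to 2.73). Jak1 had a ratio of 1.53 (1.45 to 1.61), whose direction turned under the reference genes, and Tyk2 had a ratio of 1.77 (1.63 to 1.93). Of the 9 measured IRF and IRF2-binding protein genes outside the members, 3 (33.3%) were at least 2-fold higher, against 18.7% of all measured genes. These were Irf5 at 2.64-fold, Irf8 at 2.16-fold and Irf2bp1, which encodes an IRF2-binding protein, at 3.02-fold. Irf4 was 2.41-fold lower, 1 of the 9 (11.1%), against 20.8% of all measured genes. With total counts and the reference genes Irf5 (0.80 and 0.60), Irf8 (0.51 and 0.31), Irf2bp1 (0.99 and 0.79) and Stat6 (0.79 and 0.59) stayed above 0 in log2 ratio but short of 2-fold, while Irf4 and Jak2 remained beyond it. After adjustment Irf8 stood at 0.83, Irf2bp1 at 0.46, Irf5 at 0.33, Stat6 at 0.38, Irf4 at -0.43 and Jak2 at -0.54, all within 2-fold. Irf1, a target of interferon gamma, had 78 and 49 counts with a ratio of 0.821 (0.562 to 1.19), and Irf3 had a ratio of 1.59 (1.39 to 1.82) whose direction turned under the reference genes.

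**Figure D5:**
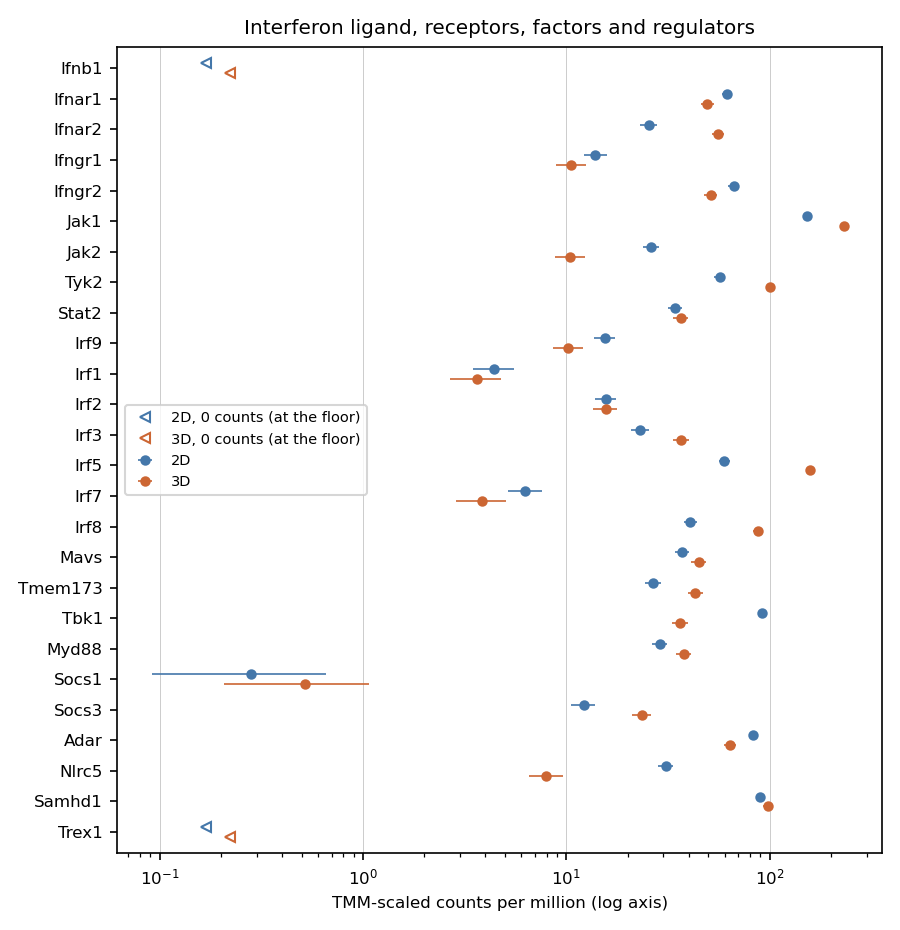
Level of the interferon beta gene, the receptor chains, kinases, STAT and IRF factors, adaptors and regulators in the 2D library (blue) and the 3D library (orange) in TMM-scaled CPM on a log axis, with 95% Poisson counting intervals. Ifnb1 and Trex1 had 0 counts (open triangles at the floor), Ifnar2 lies to the right in 3D, at 25.4 and 55.7 CPM, and Nlrc5 to the left, at 30.9 and 7.98 CPM.

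Of 17 measured genes on the routes to interferon induction, 4 (23.5%) were at least 2-fold lower and 1 (5.88%) higher. Of all measured genes, 20.8% were lower and 18.7% higher. The lower ones were the DNA sensors Aim2, with 130 and 29.5 CPM (4.41-fold, 3.97 to 4.92), and Cgas, with 27.3 and 8.13 CPM (3.36-fold, 2.73 to 4.17), the kinase Tbk1 that phosphorylates IRF3 (2.54-fold, 2.30 to 2.82), and the lipopolysaccharide receptor gene Tlr4 (2.15-fold, 1.96 to 2.36). Ticam1, the adaptor TRIF, was 2.10-fold higher (1.86 to 2.38). After adjustment Aim2, Cgas and Tbk1 stayed below -1, at -1.71, -1.21 and -1.12, and Tlr4 stood at -0.10. Ticam1 stood at 0.25 after adjustment, 0.47 with total counts and 0.27 with the reference genes, short of 2-fold in each. The adaptors Mavs and Tmem173 (STING) had ratios of 1.21 (1.08 to 1.35) and 1.62 (1.43 to 1.83), whose direction turned under the reference genes for both and under total counts for Mavs.

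Of 19 measured brakes and regulators, 3 (15.8%) were at least 2-fold lower and 1 (5.26%) higher, against 20.8% and 18.7% of all measured genes. Nlrc5, the transactivator of MHC class I genes, was 3.87-fold lower (3.14 to 4.80) and Nlrc3 2.67-fold lower (2.17 to 3.30), while Nlrx1 was 2.16-fold higher (1.82 to 2.55). Adjusted log2 ratios were -1.93 for Nlrc5, -1.54 for Nlrc3 and 0.62 for Nlrx1, and Nlrx1 was also short of 2-fold with total counts (0.51) and the reference genes (0.31). Adar, which edits self double-stranded RNA, had a ratio of 0.766 (0.703 to 0.834). Socs1, a feedback inhibitor induced by interferon, had 5 and 7 counts. Trex1 was listed at 0 in both libraries, and it overlaps Atrip on the same strand, so that zero is uncertain.

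In a wider list of interferon-induced genes outside the 42, 86 were found and 40 measured. Of these 10 (25%) were lower by 2-fold or more, near the 20.8% of all measured genes, and 4 (10%) were higher, against 18.7%. Of the 10 lower ones, 5 passed the limit on low values only through the 2D library: Oas1b, Phf11c, Trim12c, Mndal and Epsti1. The median log2 ratio of the 40 measured genes was -0.36. All 86 genes summed to 1349 CPM in 2D and 2357 CPM in 3D, a ratio of 1.75 (1.72 to 1.78) with TMM scaling. That sum went opposite to the sum of the 42. The median level percentile of the 86 was 1.27 in 2D and 0.617 in 3D, while Ifitm3 stood at 99.6 and 99.8. The lower ones whose interval bound lay farthest from 1 were Oas1b (65 and 3 counts, 16.6-fold, 5.43 to 82.5), Phf11c (48 and 2 counts), Trim12c (110 and 9 counts), Pnpt1 (3.79-fold), Trim56 (2.95-fold) and Ifi203 (3.72-fold). Oas1b, in the same gene cluster as Oas2, had an adjusted log2 ratio of -3.82. Adjusted values were -2.38 for Phf11c, -1.65 for Trim12c, -1.39 for Trim56, -0.91 for Pnpt1 and 0.15 for Ifi203. After adjustment 4 of the 10 lower genes and 1 of the 4 higher genes were still at least 2-fold different. The higher ones were Ifitm3, which blocks virus entry at endosomes and stood at 367 and 1284 CPM (3.50-fold, 3.40 to 3.60), Shisa5 (3.35-fold, 3.13 to 3.58), Ifitm2 (2.82-fold, 2.47 to 3.24) and the chemokine gene Ccl5 (32 and 65 counts, 2.65-fold, 1.71 to 4.19). After adjustment Ifitm3 stood at 0.06, Ifitm2 at 0.31, Shisa5 at 0.73 and Ccl5 at 1.19. With total counts Ifitm3 and Shisa5 were still at least 2-fold higher, and with the reference genes Ifitm3 was, at a log2 ratio of 1.01.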

How the data were processed

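Polyadenylated RNA of 2 libraries, 1 per culture method, was sequenced from a stranded TruSeq kit, per the labels' protocols. The authors deposited raw gene counts; the submitters' processing notes name Trimmomatic, HISAT2, HTSeq and build mm10. Not given in the sources used here are versions, the strand option, how multiply matching reads were treated and the gene models. Symbols, positions, exon lengths and GC content came from GENCODE M21 (mm10), which matched 99.7% of identifiers. Counts were scaled with TMM (edgeR 4.0.16, R 4.3.3). Ratios have exact conditional 95% intervals. A count of 0 was set to a floor of 3 counts, and genes at or under it in both libraries got no ratio. The reads carry no molecular identifiers and are not independent molecules, so intervals and floors cover counting error only. The adjustment used cubic regression splines of 4 degrees of freedom (patsy 1.0.2) over 11666 genes and explained 45.0% of the log2 ratio's variance. The code was tested on simulated counts. The members and lists were chosen with earlier results of these data known. All members were named; of the other lists, landmark genes and up to 6 measured genes per direction that differed at least 2-fold, ranked by the interval bound nearest to 1, were named, with ligand genes and a few lower-ranked or overlapping genes added after their values were seen. Alternatives were DESeq2 1.42.0 size factors, other scalings, filters, a pseudocount, thinning, other thresholds and leaving out 14 members with close paralogs. Of all members, 5 have exons overlapping a gene on the same strand (Gbp7, Herc6, Irf9, Parp14, Rtp4) and 6 on the opposite strand (Dhx58, Eif2ak2, Gbp2, Irf7, Oasl1, Usp18). A few genes that these rules would name are not reported here.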

Additional observations from a re-analysis of the deposited data

How the results depend on the processing

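With DESeq2 size factors or upper-quartile scaling the counts of members at least 2-fold different were the same, and the median log2 ratio of members stayed below 0 in every alternative tried. Under total counts 0 members were higher and 16 lower, with a median of -1.42, and under the reference genes 0 were higher, with a median of -1.59. Without the filter on low values 18 of 36 were lower (25.9% of all genes), with a median of -0.95. With a mean of at least 5 CPM 3 of 13 were lower, near the 17.3% of all genes, with a median of -0.60. A pseudocount of 1 CPM left 0 higher, against 16.6% of all genes, and 8 lower, against 18.1%. It lost the calls of Phf11d and Rtp4 and gave a median of -0.68. Thinning gave a median of -0.91, lost the call of Ifih1, added Irf7 and changed the sign of Ifi27l2a, Stat2 and Usp18, and leaving out members with close paralogs gave -0.91. Adjustment left 0 higher and 5 lower, with a median of -0.49, and turned Phf11d to 0.048, Ifih1 to 0.096 and Herc6 to 0.086. At 1.5-fold 2 were higher, and with the whole interval beyond 2-fold 0 were higher and 6 lower. Filters change which members are tested; the cause of the other shifts was not tested. No library could be left out, and no paired analysis was possible because each culture method has 1 library. At 0 to 27 counts, the 20 unmeasured members resolve only large ratios.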
